A study of Mus musculus with 18 samples.

Results

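The MiT family of transcription factors (Mitf, Tfeb, Tfec and Tfe3) and 6 lysosomal cathepsins (Ctsb, Ctsd, Ctsk, Ctsl, Ctss and Ctsz) were examined in a catalog of accessible chromatin from mouse macrophages. Accessible sites were assigned to a gene when their summit lay in the gene body or within 50000 bp of its most upstream start site in the GENCODE annotation. By this rule the 10 genes held 177 distinct summits in 171 reference peaks, which fell into 108 of the 59617 extended regions of the catalog. The 4 MiT factors accounted for 62 of these regions and the cathepsins for 46. The 10 genes are among 21938 protein-coding genes to which the same counting was applied.

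The catalog was built from 18 ATAC-seq libraries, an assay in which the Tn5 transposase cuts exposed DNA. The cells were bone marrow-derived macrophages (BMDMs), which are grown from the marrow of wild type mice, male according to the study's methods. A period of 1 h in the solvent DMSO preceded every condition: no stimulus, LPS, a bacterial cell wall component, or the cytokine IL-4, the latter both at 10 ng/mL for 30 min, 1 h, 2 h or 4 h, which gave 9 groups of 2 libraries. The deposited lists merge all libraries and have no value per library, so that no level could be compared between LPS, IL-4 and untreated BMDMs, no spread between replicates could be computed, and all values below describe a single catalog. Depth per library is unknown for the same reason. The score of a summit runs from 102 to 2781 over the whole list, its scale is not stated, and it was used only to order summits.

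MiT proteins are basic helix-loop-helix leucine zipper factors that bind as dimers to E-boxes (CACGTG) and to the related M-box (TCATGTG). TFEB and TFE3 are kept in the cytoplasm by nutrient signaling through mTORC1 and, once in the nucleus, switch on genes of lysosomes and autophagy, many of which carry an extended E-box (TCACGTG), the core of the CLEAR element. MITF is best known as the master regulator of melanocytes and also acts in osteoclasts, and cathepsins are the lysosomal proteases that degrade proteins delivered by endocytosis, phagocytosis or autophagy.

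The letters CACGTG were found at 12 positions within 100 bp of 11 member summits. They are shown because they are the letters that MiT factors are known to bind, each with 9 bases to either side on the strand of the gene and the E-box in capitals (mouse assembly GRCm38.p6, mm10 coordinates). The number after each name is how far the summit lay from the start of the gene.
Ctsb, summit 20 bp downstream, chr14:63122433-63122456: gtcaagcatCACGTGacgaatcag
Ctsb, summit 19286 bp upstream, chr14:63103234-63103257: ccagtttctCACGTGcccctgatg
Ctsb, summit 1334 bp downstream, chr14:63123839-63123862: ctttaaagcCACGTGacccaggcc
Ctsb, summit 23140 bp downstream, chr14:63145617-63145640: gcttcctgtCACGTGctctctcct
Ctsd, summit 61 bp downstream, first site, chr7:142388058-142388081: tccttccccCACGTGacctgtatc
Ctsd, summit 61 bp downstream, second site, chr7:142387911-142387934: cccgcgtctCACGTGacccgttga
Ctsd, summit 47331 bp downstream, chr7:142340764-142340787: aatcatggcCACGTGggggcaggg
Ctsl, summit 3001 bp upstream, chr13:64373832-64373855: tgtaaaaccCACGTGttaaaataa
Ctsz, summit 2831 bp downstream, chr2:174436223-174436246: tcccccgccCACGTGctcctctgt
Mitf, summit 45526 bp upstream, chr6:97761586-97761609: tctcgggctCACGTGtctatccag
Mitf, summit 49339 bp downstream, chr6:97856283-97856306: tcagtctctCACGTGcaaaccatc
Tfeb, summit 30250 bp downstream, chr17:47767268-47767291: aatttgtggCACGTGgggtgtgta
Of the 11 summits, 8 lay in windows of cathepsins (4 of them in that of Ctsb) and 3 in windows of MiT factors. The Ctsd summit at 47331 bp lay in an intron of Ifitm10, 2685 bp from the nearest Ifitm10 start site. The Ctsb summit at 23140 bp lay in untranslated sequence of both Ctsb and Fdft1. Start site summits with an E-box numbered 2, those of Ctsb and Ctsd. At the start site of Ctsb and at the second site of Ctsd, the extended form TCACGTG could be read on both strands. Among the RefSeq promoters, which leave out Ctsb, an E-box was found in 2 of 14 member promoters, those of Ctsd and Ctsl. The share over all 32851 promoters was 7.15%.

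Reference peaks lay within 1000 bp of an annotated start site in 9 of the 10 genes, against 56.5% of all protein-coding genes. Ctsk, the collagen-degrading cathepsin of osteoclasts, was the exception, although a peak lay within 2500 bp of its start site. The highest start site summit of each of the other 9 genes scored between 1094 for Ctss and 1864 for Ctsd. The median over the 9 genes was 1594, and the median over all protein-coding genes with such a summit was 1456. Among these genes, Ctss was at percentile 26.5, Ctsd at percentile 79.6 and the other members in between. No replicate error is available for these scores, and small gaps in this order, such as those between Tfe3 (1825) and Mitf (1812) or between Ctsz (1594), Ctsb (1568) and Ctsl (1531), cannot be read as differences.

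**Figure D1:**
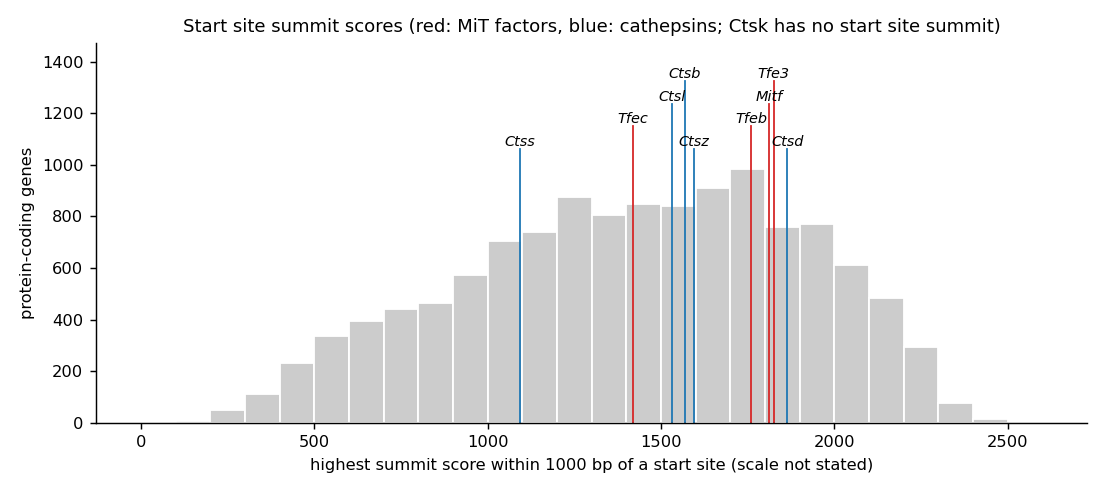
Distribution of the highest summit score within 1000 bp of a start site (x axis, scale not stated) over all protein-coding genes that had one (y axis, number of genes, bins of 100), with vertical lines at the MiT factors in red and the cathepsins in blue. The lines run from 1094 for Ctss to 1864 for Ctsd, and Ctsk has no line because it had no start site summit.

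Windows of the 10 genes held a median of 10.5 extended regions (range 6 to 32), against 5 over all protein-coding genes and 7 over those with a start site peak. The median was 11.5 over the 8 macrophage markers and 9 over the 17 known MiT targets that are described below. Ctsk and Ctss shared 10 regions, so that 1 locus enters the median as 2 genes. Mitf had the most with 32 regions, followed by Ctsk with 12, Tfeb, Tfe3 and Ctsd with 11 each, Ctsb and Ctss with 10, Tfec with 8, Ctsz with 7 and Ctsl with 6. Part of these regions lay nearest to the start site of another coding gene. When only regions nearest to the gene itself were kept, the median fell to 5.5 (1 over all protein-coding genes and 2 over those with a start site peak), with 32 for Mitf, 8 for Tfeb and Tfec, 6 for Ctsb and Ctss, 5 for Ctsd, 4 for Tfe3 and Ctsl, 3 for Ctsk and 2 for Ctsz. Of the 177 distinct summits, 53 were intergenic and 3 lay in coding exons.

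**Figure D2:**
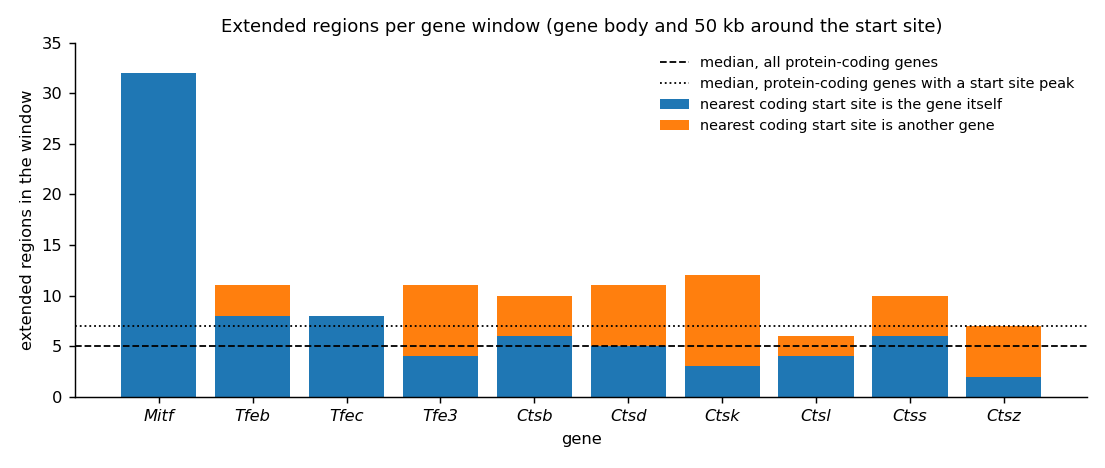
Extended regions (y axis, number) in the window of each of the 10 genes (x axis). The blue part of a bar counts regions whose best summit is nearest to a start site of the gene itself, the orange part those nearest to another coding gene, and the dashed and dotted lines are the medians of whole bars, 5 and 7, over all protein-coding genes and over those with a start site peak. All regions of Mitf and Tfec are blue, whereas the bars of Tfe3, Ctsd, Ctsk and Ctsz are mostly orange.

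Summits of the 10 genes had a median score of 834 (lower quartile 495, upper quartile 1357), and the median over all 84660 summits was 737 (486 and 1153). Their highest scores were not always found at start sites. Among the summits nearest to the gene itself, the highest lay at a start site in 4 genes (Mitf, Tfeb, Tfe3 and Ctsl). It lay elsewhere in the other 6, although for Ctsd the gap (1903 against 1864) is too small to be read as a difference. For Tfeb this start site (1760) is an internal one, 32208 bp into the gene, with an annotated protein of at most 78 residues. The most upstream start sites of Tfeb scored 1644. Summits within these windows that lay mostly in repeats made up 3.95%, against 6.15% of all summits.

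**Figure D3:**
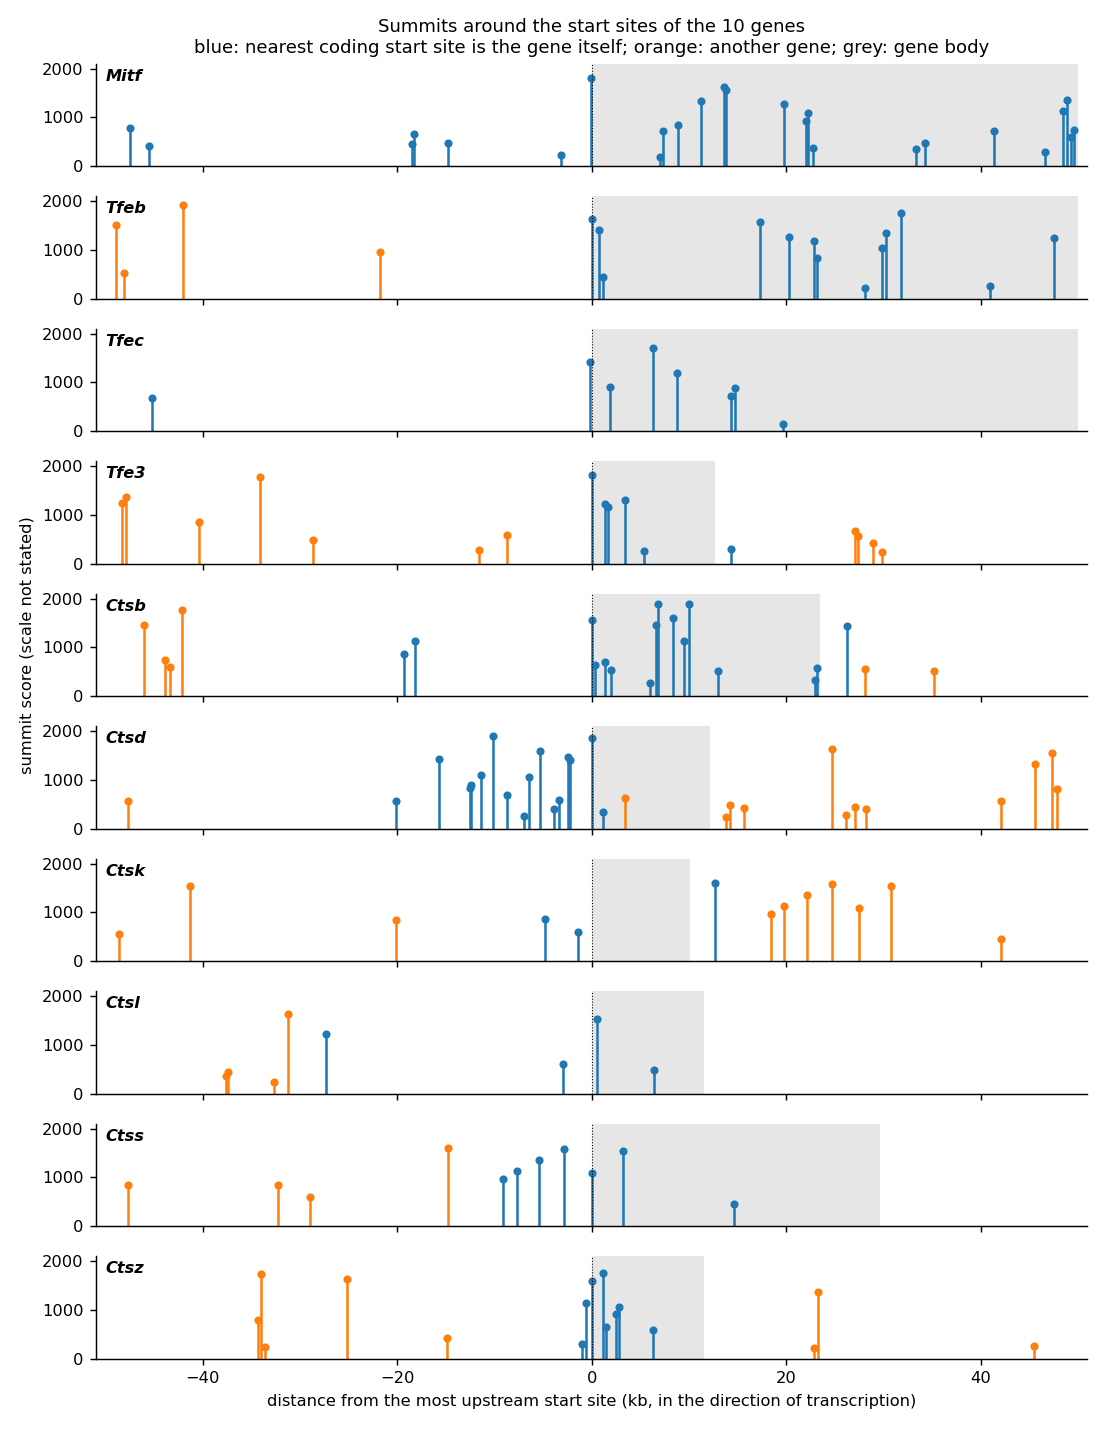
Summit scores (y axis, scale not stated) against their distance to the start of the gene (x axis, kb, in the direction of transcription) for the 10 genes, 1 panel per gene. Each stem is a summit, blue when the nearest coding start site belongs to the gene and orange otherwise, and grey marks the gene body. Ctsk has no stem at 0, and the stems of Ctsd crowd on the upstream side of its start site.

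Mitf is transcribed from several alternative first exons, and the resulting isoforms differ at their amino terminus. Its annotated start sites formed 4 groups over a gene body of 214298 bp (chr6:97807052-98021349, plus strand). The most upstream group (chr6:97807052-97807058), from which the longest protein of 526 residues is made, had a peak of 393 bp whose summit lay 102 bp upstream and scored 1812. The second group, 122747 bp further downstream with a protein of 510 residues, had a narrower peak of 175 bp, with a summit 277 bp upstream that scored 1357. The third group, at 133866 bp with a protein of 501 residues, had no peak within 1000 bp, and its nearest summit was the one of the second group, 11396 bp upstream. Group 4, the most downstream at 184740 bp, encodes a protein of up to 419 residues, the isoform known from melanocytes. It had no peak either, and the nearest summit lay 4015 bp downstream and scored 1581. Accessible chromatin was thus recorded at 2 of the 4 groups of Mitf start sites. With the start sites of RefSeq, which form 6 groups, it was recorded at 4, the additional ones being predicted starts in the gene body (scores of 1272 and 476). A start site without a peak is one where no call passed the authors' threshold and their filter on overlap between replicates.

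The sequence at 3 of the 4 groups is shown to set start sites with a peak beside one without, on the strand of Mitf and with motif matches in capitals. It covers the 150 bases that precede the first RefSeq start of groups 1 and 4, and the whole peak of group 2. The SP/KLF letters (GGGCGG) are not marked in the sequences shown here.
Mitf group 1, chr6:97806852-97807001: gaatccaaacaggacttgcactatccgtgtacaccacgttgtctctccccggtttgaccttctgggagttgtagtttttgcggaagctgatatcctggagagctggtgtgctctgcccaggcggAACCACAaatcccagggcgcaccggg
Mitf group 2, chr6:97929447-97929621: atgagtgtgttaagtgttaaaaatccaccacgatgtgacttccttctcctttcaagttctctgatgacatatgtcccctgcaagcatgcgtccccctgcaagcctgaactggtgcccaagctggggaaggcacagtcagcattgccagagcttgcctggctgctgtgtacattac
Mitf group 4, chr6:97991551-97991700: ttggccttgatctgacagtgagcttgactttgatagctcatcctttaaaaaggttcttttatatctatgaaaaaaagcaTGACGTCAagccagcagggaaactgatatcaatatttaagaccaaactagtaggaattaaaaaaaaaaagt
The first holds a RUNX match (TGTGGTT, here on the opposite strand). None of the motifs matched in group 2. The sequence of group 4 holds the cAMP response element TGACGTCA, known as the element through which CREB acts on the melanocyte promoter. The same 8 letters occur in 1.79% of the 32851 mouse promoters of RefSeq and within 100 bp of none of the member summits, against 0.938% of all summits.

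Accessible sites in Mitf were concentrated upstream of its second group of start sites. Of the 46 summits, 6 lay over 1000 bp upstream of the gene and 29 in the first 100000 bp of its body, whereas 4 lay between groups 2 and 4 and 3 past group 4. All 39 summits in the body were intronic. Beside the start site, scores above 1500 were found at 13660 and 13846 bp (1632 and 1568, both in a single peak of 534 bp), at 59730 bp (1696) and at 188884 bp (1581). Long genes hold more sites, and Mitf was therefore set beside the 481 protein-coding genes of at least 200000 bp with a start site peak, whose median was 12 regions. Among these, 30 other genes had at least as many regions as Mitf, and 32 did so among all protein-coding genes.

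**Figure D4:**
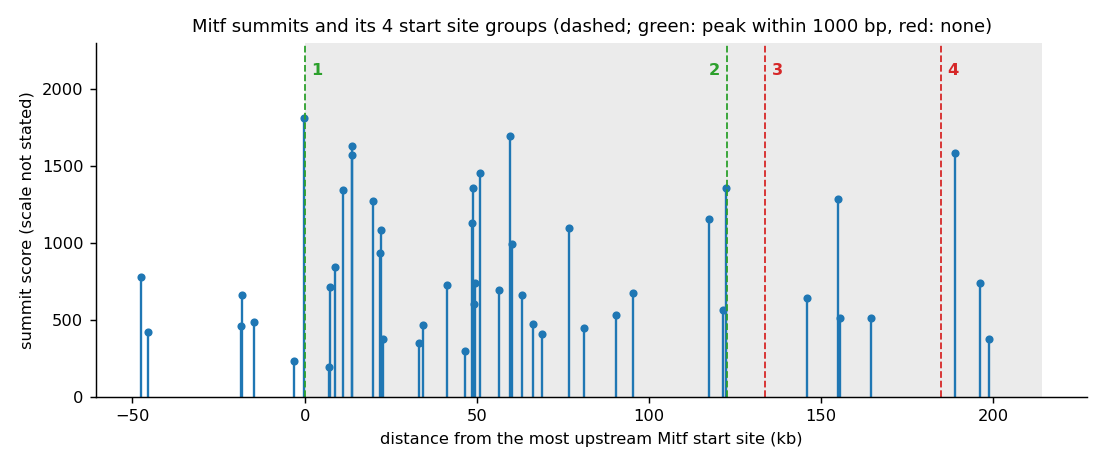
Summit scores in the Mitf window (y axis, scale not stated) against their distance to the first of its start sites (x axis, kb). Dashed lines mark the 4 groups of start sites, green with a peak within 1000 bp and red without, and grey marks the gene body. Groups 1 and 2 each coincide with a stem (1812 and 1357), whereas no stem stands at groups 3 and 4.

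Tfeb (chr17:47737030-47792419, plus strand), the main inducer of lysosomal genes, had 17 summits with a median score of 1248, the highest median of the 10 genes. Its start sites formed 9 groups, several of which belong to short or partial transcripts. The most upstream group carried a summit 13 bp downstream with a score of 1644, and a further 3 groups carried summits that scored 1568, 1188 and 1760. The longest proteins annotated from these 3 groups have 32, 105 and 78 residues. The summit of 1760, 31833 bp into the gene, had the widest peak of the locus at 687 bp. The group with the longest protein (534 residues), 48690 bp into the gene, had a peak within 1000 bp. Its nearest summit scored 1248 and lay 1107 bp upstream. The best summit of the window, with a score of 1929 at 42085 bp upstream, lay in an intron of Frs3 and closest to the start site of Prickle4. The Tfeb summit with an E-box, at 30250 bp, scored 1357, and its position fell inside the E-box.

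Tfec (chr6:16833373-16898441, minus strand), a MiT factor found mainly in myeloid cells, had 9 summits, all of which were nearest to Tfec itself. Its first start site had a summit 184 bp upstream that scored 1418, and a transcript with a retained intron that starts 52445 bp downstream had one of 421. The best summit, with a score of 1696, lay 6350 bp into the gene, in an intron, and held an M-box. The stretch around the start site summit is shown because 2 motifs lie next to it.
Tfec start site summit, chr6:16898565-16898685: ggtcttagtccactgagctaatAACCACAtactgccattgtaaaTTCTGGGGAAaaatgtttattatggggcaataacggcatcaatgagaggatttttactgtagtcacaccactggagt
On the strand of Tfec it contains, in capitals, a RUNX match and a STAT6-type palindrome, the element bound by the transcription factor that IL-4 activates. RUNX matches were found at 11 of the 177 member summits (6.21%), against 7.91% of all summits, and at 4 of the 23 start site summits (17.4%), against 3.8% of those of all protein-coding genes. Over 1000 bp from any coding start site the order turned, with 6 of 133 member summits (4.51%) and 9.33% of all such summits. With so few start site summits a few matches decide the share, and no enrichment was tested. STAT6-type matches were found at 13 of the 177 member summits (7.34%), against 6.81% of all summits, and of these 5 belonged to Mitf, 3 to Tfec, 2 to Tfe3 and 1 each to Tfeb, Ctsd and Ctsz.

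Tfe3, which shares many targets with Tfeb, lies on chromosome X (chrX:7762560-7775202, plus strand). Its first group of start sites had a summit that scored 1825, 1 bp from a start site, and a second group had one of 1224. Since male cells have a single X, Tfe3 was also set beside the 342 X-linked genes with a start site peak, of 948 on X, whose median score was 1260. Of these, 21 other genes scored at least as high. Of the 17 summits in its window, 6 were nearest to Tfe3 and the others lay at Wdr45, Praf2, Ccdc120 and Gripap1.

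Ctsb (chr14:63122462-63145923, plus strand), a cysteine protease and one of the most abundant cathepsins, had 22 summits, of which 13 lay in the gene body. The start site summit scored 1568. Higher values were found within the gene, where 6 summits between 5988 and 10007 bp formed a single extended region of 5635 bp with scores of 266, 1456, 1890, 1594, 1129 and 1890. The 120 bases upstream of the start site are shown because they hold the E-box.
Ctsb upstream, chr14:63122342-63122461: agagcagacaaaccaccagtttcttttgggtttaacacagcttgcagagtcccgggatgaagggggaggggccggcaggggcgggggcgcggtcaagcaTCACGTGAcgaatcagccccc
The E-box ended 15 bp ahead of the start site. Another part of the intronic region is shown because an M-box and an AP-1 site (TGACTCA) lie side by side at the summit 8372 bp downstream, both in capitals.
Ctsb M-box summit, chr14:63130804-63130864: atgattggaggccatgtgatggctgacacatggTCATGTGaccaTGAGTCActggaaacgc

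Ctsd (chr7:142375911-142388038, minus strand), the aspartic protease of lysosomes, had a start site summit that scored 1864, a value not separable from those of Tfe3 and Mitf, and the densest window of the 10 genes, with 29 summits per 100 kb (percentile 98.9 of all protein-coding genes). Its own accessible sites stretched upstream of the gene: 14 summits in 4 extended regions lay between 1000 and 21000 bp upstream, all nearest to Ctsd. The first of these regions held 7 summits over 6319 bp, and the best summit, 10171 bp upstream, scored 1903. On the downstream side, most summits lay in introns of Ifitm10. The 120 bases upstream of the start site are shown for the first of its pair of E-boxes.
Ctsd upstream, chr7:142388039-142388158: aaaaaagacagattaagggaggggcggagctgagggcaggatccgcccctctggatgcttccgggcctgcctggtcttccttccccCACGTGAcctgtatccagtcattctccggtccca
This E-box ended 29 bp ahead of the start site, and the second one lay 118 bp downstream of it in an exon.

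Ctsk (chr3:95499256-95509362) and Ctss (chr3:95526786-95556403) are neighbors on the plus strand, and their windows overlapped in 11 summits and 10 regions, with 12 regions in all. Ctss, which trims the invariant chain of MHC class II molecules in antigen-presenting cells, had a start site summit that scored 1094, 10 bp downstream. Higher scores surrounded it, with 1581 at 2844 bp upstream, 1357 at 5391 bp upstream and 1543 at 3243 bp downstream. Ctsk had no summit in its gene body of 10107 bp. Its nearest summit lay 1433 bp upstream of the start site and scored 593, and the next one, 4777 bp upstream, scored 856 in a coding exon of Arnt. The site between both genes with the highest score (1594), 12706 bp downstream of the Ctsk start site and 14824 bp upstream of that of Ctss, held an M-box. The 30 bases around the Ctss start site and 74 bases upstream of Ctsk are shown, the latter ending where its first exon in RefSeq begins, which lies upstream of the GENCODE start.
Ctss start site, chr3:95526782-95526811: tcACTTCCTCattgtggatgctTCATGTGa
Ctsk upstream, chr3:95499136-95499209: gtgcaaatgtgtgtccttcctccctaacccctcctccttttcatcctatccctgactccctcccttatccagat
The Ctss start site lies within a PU.1/ETS site (GAGGAAGT, here on the opposite strand), the element of the factor that directs myeloid development, and an M-box follows, both in capitals. None of the letters searched was found in the Ctsk stretch.

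Ctsl (chr13:64359337-64370890, minus strand), a cysteine protease, had the fewest summits of the 10 genes, 8 in 6 regions, and its start site summit scored 1531. A summit 27347 bp upstream, nearest to Ctsl and with a score of 1224, is shown because a pair of M-boxes meets an AP-1 site at its center.
Ctsl M-box summit, chr13:64398207-64398267: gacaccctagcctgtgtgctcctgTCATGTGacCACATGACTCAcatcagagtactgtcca
The second M-box and the AP-1 site overlap, and the capitals run through both. Ctsz (chr2:174427493-174439039, minus strand), a carboxypeptidase, had 16 summits, of which 8 were nearest to Ctsz. These clustered around the start site (1594), with 1141 at 614 bp upstream and the highest score, 1760, at 1158 bp downstream, and its other summits lay mainly at the start sites of Nelfcd, Atp5e and Prelid3b.

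Motif counts were set beside those at all summits. E-boxes were found at 11 of the 177 member summits (6.21%, 95% Wilson interval 3.51 to 10.8, counting error only), and 4.8% of all summits had one. The interval treats the summits as independent, although they fall into 108 extended regions and Ctsb held 4 of the 11, so it may be too narrow. Within 50 bp the shares were close, 2.82% and 2.63%, and 1 gene in place of 2 had an E-box at a start site summit. The order turned when 200 bp to each side were read, with 6.78% of member summits and 7.59% of all summits. The extended E-box was found at 7 member summits (3.95%, against 2.41%) and the M-box at 13 (7.34%, against 4.79%). PU.1/ETS sites were found at 21 (11.9%, against 9.08%) and AP-1 sites at 26 (14.7%, against 15.9%). Within 50 bp, a window tried for these motifs after seeing the data, the order turned for the extended E-box (1.13% against 1.38%) and for AP-1 (13.0% against 11.6%), and within 200 bp the AP-1 shares were the same (18.6%). At the 23 start site summits, 2 had an E-box (8.70%), against 7.52% of all start site summits of protein-coding genes. Shares there were also higher for the M-box (8.7% against 2.09%), PU.1/ETS (13.0% against 4.57%), AP-1 (13.0% against 6.55%) and STAT6-type sites (8.7% against 4.17%). They were lower for NF-kB (4.35% against 5.04%), general ETS (0% against 4.53%) and the cAMP response element (0% against 2.16%). At these numbers a few summits decide each share, and no enrichment was tested.

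E-boxes were found at 8 of 88 summits of the cathepsins (9.09%, 4 of them at Ctsb) and 3 of 89 summits of the MiT factors (3.37%), with 4.8% over all summits. M-boxes were found at 9 (10.2%) and 4 (4.49%), with 4.79% over all summits. STAT6-type palindromes were found at 2 summits of the cathepsins (2.27%) and at 11 of the MiT factors (12.4%), with 6.81% over all summits, and NF-kB sites at 3 (3.41%) and 8 (8.99%), with 5.55% over all summits. PU.1/ETS sites were found at 10 summits of the cathepsins (11.4%) and 11 of the MiT factors (12.4%), with 9.08% over all summits. SP/KLF sites were found at 17 (19.3%) and 16 (18%), with 16.9% over all summits. RUNX sites were found at 6 (6.82%) and 5 (5.62%), with 7.91% over all summits, and AP-1 sites at 10 (11.4%) and 16 (18%), with 15.9%. These values were seen after the windows had been counted and were not tested.

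Other genes of the pathway were read from lists, beside the 56.5% of all protein-coding genes with a start site peak. Of 16 further cathepsins, 6 had a start site peak (Ctsa, Ctsc, Ctse, Ctsf, Ctsh and Ctso), with Ctsc, which activates serine proteases of granulocytes and lymphocytes, at 1877 and Ctse at 573. None of the 8 placental cathepsins of the Ctsl cluster had one, and 6 of these had no summit in their window. Among inhibitors and processing factors, 7 of 12 had a start site peak, including Cst3 (2232), the secreted inhibitor cystatin C, and Lgmn (1799), the asparaginyl endopeptidase that cleaves cathepsin precursors, a share near that of all protein-coding genes. Among genes that control MiT factors, 16 of 17 had one, with Rragd as the exception and Fnip2, a partner of folliculin, at 2271. Of 17 genes known as MiT targets in lysosomes or osteoclasts, 14 had one. The 3 without one were Acp5, Oscar and Atp6v0d2, whereas Ostm1 (1594) and Clcn7 (1059), which osteoclasts need to resorb bone, had one.

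The cell type was checked with marker genes. Start site peaks were found in all 8 macrophage markers, with scores between 1176 for Csf1r and 2021 for Cd68. Of 6 melanocyte markers, 1 had a start site peak (Pmel, 1443, percentile 49.3 of the start site summits of protein-coding genes), and Tyr and Tyrp1 had no summit in their windows. Of 5 osteoclast markers, 1 had a start site peak (Mmp9, 769), whereas Calcr, Dcstamp, Ocstamp and Atp6v0d2 had none. Start site peaks were found in 1 of 4 markers of T cells (Lck, 900), 1 of 3 of B cells (Pax5, 634), 2 of 3 of fibroblasts (Col1a1, 613, and Pdgfra, 402) and 0 of 3 of epithelium. The scores of the 2 fibroblast markers were at percentiles 6.4 and 1.41 of all protein-coding genes with a start site summit.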

How the data were processed

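The 3 BED lists of ATAC-seq sites, merged by the authors over all 18 libraries, were used. According to the study's methods and the submitters' processing notes, single-end reads of 76 bases were trimmed (BBDuk, Trimmomatic 0.39), aligned to mm10 with ShortStack and filtered (SAMtools 1.9), and peaks were called with MACS2 2.2.6 with duplicates kept. Only peaks below a stringent q-value whose area overlapped sufficiently between replicates were retained. No shift to the Tn5 cut is named, so a summit may lie beside the cut, and kept duplicates can raise scores. The lists hold 82391 reference peaks, 59617 extended regions and 84660 summits. Reference peaks and extended regions carry positions only. The summit score was deposited by the authors without a stated scale. No column belonged to a single library (0 left unmapped).

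Here, peaks within 1000 bp of a GENCODE M21 start site, regions in gene windows of 50000 bp, and motif letters on both strands within 100 bp of a summit were counted (Python, pandas, SciPy). Start sites within 1000 bp were joined into groups. Sequences came from GRCm38.p6, and promoter motif shares from the RefSeq table of that assembly, which holds 9 of the 10 genes; Ctsb is named only. SP/KLF letters were GGGCGG and general ETS letters CCGGAAGT. Extended E-boxes contain E-boxes. NF-kB and STAT6 sites were searched as degenerate palindromes. Counting steps were tested on simulated data. No test between groups could be made. The members and lists were chosen with earlier results of these data known. All 10 genes, the listed genes and neighbors of named sites are named.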

Additional observations from a re-analysis of the deposited data

How the results depend on the processing

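No paired analysis was possible because the lists have no column per library, and for the same reason no replicate could be left out. With 500 bp around start sites, 9 of the 10 genes had a peak (54.9% of all protein-coding genes), and with 2500 bp all 10 did, Ctsk included (59.9%). The median start site score was 1664 at 2500 bp, where Ctsk (593) joins and the median is over 10 genes. The same median over all protein-coding genes was not computed at 2500 bp. Mitf had 2 accessible groups of start sites at 500 bp, at 2500 bp and with groups joined within 200 bp, but 4 with RefSeq start sites, an alternative chosen after seeing the data, since 2 predicted starts at chr6:97827464 and chr6:97873103 have peaks. The median number of regions was 6 at 20000 bp (2 over all protein-coding genes), 16 at 100000 bp (9) and 5.5 with regions nearest to the gene only. The share of member summits with an E-box was 2.82% within 50 bp (2.63% of all summits), 6.78% within 200 bp (7.59%), 5.56% for the best summit of each region and 6.32% for summits at or above the median score. For the best summits and the high-scoring ones, the share over all such summits was not computed, so they cannot be compared with it. Within 50 bp, 1 gene had an E-box at a start site summit instead of 2. Of 40 region counts per gene, 23 moved by over 1.5 times.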
